A study of Drosophila melanogaster with 7 samples.

Results

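The genes described here are those that were higher in every Sox21a-/- library than in every wild type library of midgut progenitors, among genes with a measured value in all libraries. RNA-seq was done on Esg-GFP+ cells, in which the transcription factor Esg is fused to GFP and which are taken as the intestinal stem cells (ISCs) and the enteroblasts (EBs) of the Drosophila midgut. A gene entered the set if its value was above 0 in all 7 libraries, if its largest value was at least 2 FPKM, and if its lowest Sox21a-/- value was at least 1.5 times its highest wild type value. FPKM (fragments per kilobase of exon, scaled to the mapped reads of the library) is a level per length. By these 3 conditions 165 genes qualified, and 15 of them were left out by name (Delta, kek1, tobi, and members of the maltase, Jonah protease, trypsin and glutathione S-transferase groups). The set holds the other 150 genes, out of 7608 genes in the deposited table. Of the 7608 genes, 2684 were above 0 in all libraries and 2448 of these also reached 2 FPKM, so the rule took 6.74% of the genes that it could take before the names were left out. The opposite condition, lowest wild type at least 1.5 times highest Sox21a-/-, was met by 82 of the 2448 genes (3.35%). The members were chosen by the FPKM values of all 7 libraries, so these values are given as a description, and no test of the contrast is used as support for a member.

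There were 4 libraries labelled wild type, from Esg-GFP flies, and 3 labelled Sox21a-/-, from Esg-GFP flies homozygous for a Sox21a deletion. All came from adult midguts at day 10, and the GFP fusion that marks the cells was present in both groups. The study made deletion alleles by CRISPR/Cas9 (Sox21a JC1 and Sox21a JC2), and the sources used here do not say which of them the sequenced flies carried. Many guts were pooled and dissociated with elastase for each sort, and the GFP gate was set with w1118 midguts, so a library is a pool and not 1 animal. The labels number the replicates but say nothing of separate cultures or days. In sorted bulk RNA, more cells of a type and more RNA per cell cannot be told apart.

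The midgut epithelium is renewed by ISCs, which divide and give rise to EBs. EBs then differentiate into enterocytes, the large absorptive cells that secrete digestive enzymes into the lumen, take up nutrients and face the chitin-containing peritrophic matrix. Sox21a is a SOX family transcription factor that acts in EBs on their way to enterocytes. Much of what an enterocyte makes is proteases, lipases, sugar hydrolases, membrane carriers and matrix proteins, each encoded by large gene families. Hemocytes, the blood cells of the fly, express scavenger and Nimrod receptors and collagen IV.

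As facts of all libraries, summed FPKM lay between 321021 and 537114, and between 23.0% and 28.5% of the genes of a library were listed at 0. The approximate depth, from the step between the lowest values, was between about 9450000 and 9560000 reads in 3 libraries (wild type replicates 1 and 2, Sox21a-/- replicate 2) and between about 7470000 and 8410000 in the rest. Sox21a itself was at 0, 0, 230.4 and 233 FPKM across wild type and 96.3, 50.6 and 0 FPKM across Sox21a-/-, with zeros in both groups, so the labels could not be checked on it, and groups are named by their labels. The progenitor markers did not all go the same way. The marker klu was at 42.95, 29.7, 49.03 and 40.97 FPKM across wild type and 9.14, 11.4 and 16.6 FPKM across Sox21a-/-. Delta went the other way and was higher in every Sox21a-/- library than in every wild type library (ratio of mean FPKM, 5.32). E(spl)m3-HLH and sna were at 18.5 FPKM or above in all 7 libraries. Values of spdo overlapped between the groups. N was listed at 0 in wild type replicate 1, and E(spl)mbeta-HLH and Sox100B in every library but Sox21a-/- replicate 3. The gene esg was not analysed here. Wild type replicates 3 and 4 differed from each other by 1.99 times counting noise, against 13.6 to 17.04 for the other wild type pairs. Whether they are separate biological samples is not given in the sources used here. They were kept as separate samples, and averaging them gave 180 genes by the rule in place of 150.

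Among the members given a class, those of digestion and uptake were the most numerous. A class was given to 98 of the 150 genes. These were sorted into 9 classes after the set was seen, by the known or predicted protein family of each gene. Membrane transport was the largest class of the set with 21 genes. Genes classed as peptidases numbered 20, and 9 more peptidases that met the rule (Jonah proteases and trypsins) were among the genes left out by name. At least 29 peptidases thus qualified, since the genes without a class may hold more. There were 13 lipid and sterol genes, 13 genes of oxidation and detoxification, 9 hemocyte and immune genes, 7 genes of cell fate, neural function and signaling, 6 genes of chitin and the lumen lining, 5 genes of sugar and glycan breakdown and 4 alkaline phosphatases. Also left out by name though they met the rule were tobi and Mal-A3, of sugar breakdown, and GstD7 and GstE10, of detoxification. The class counts do not include them. The other 52 genes had no class. Classes were given to members only. The share of each class among the 2448 genes was not counted, and no excess is read from these numbers. Of the 150 symbols, 89 were CG numbers, that is, gene models without a given name.

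Levels in the set spanned a wide range. The mean over wild type libraries was between 0.0789 and 552 FPKM with a median of 2.17, and the mean over Sox21a-/- libraries was between 1.23 and 2211 FPKM with a median of 13.8. In wild type, 43 genes had a mean under 1 FPKM, 68 between 1 and 10 FPKM and 39 of 10 FPKM or more. The ratio of mean FPKM, Sox21a-/- over wild type, was between 1.90 and 60.8 with a median of 4.91. It was 10 or more for 33 genes, between 5 and 10 for 40, between 3 and 5 for 54 and under 3 for 23. Over all 2448 genes the median ratio was 0.989. In what follows the values of a gene are given in the order of replicates 1 to 4 for wild type and of replicates 1 to 3 for Sox21a-/-, and fold means this ratio of means. The replicates of a gene also spread more in the set than over all 2448 genes, which include it. The median of the wild type means was 12.5 FPKM over the 2448 genes, against 2.17 in the set, and the part of low level in this spread was not tested. The coefficient of variation over the wild type libraries had a median of 39.1% in the set and 20.9% over the 2448 genes, and over the Sox21a-/- libraries the medians were 28.6% and 19.97%.

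**Figure D1:**
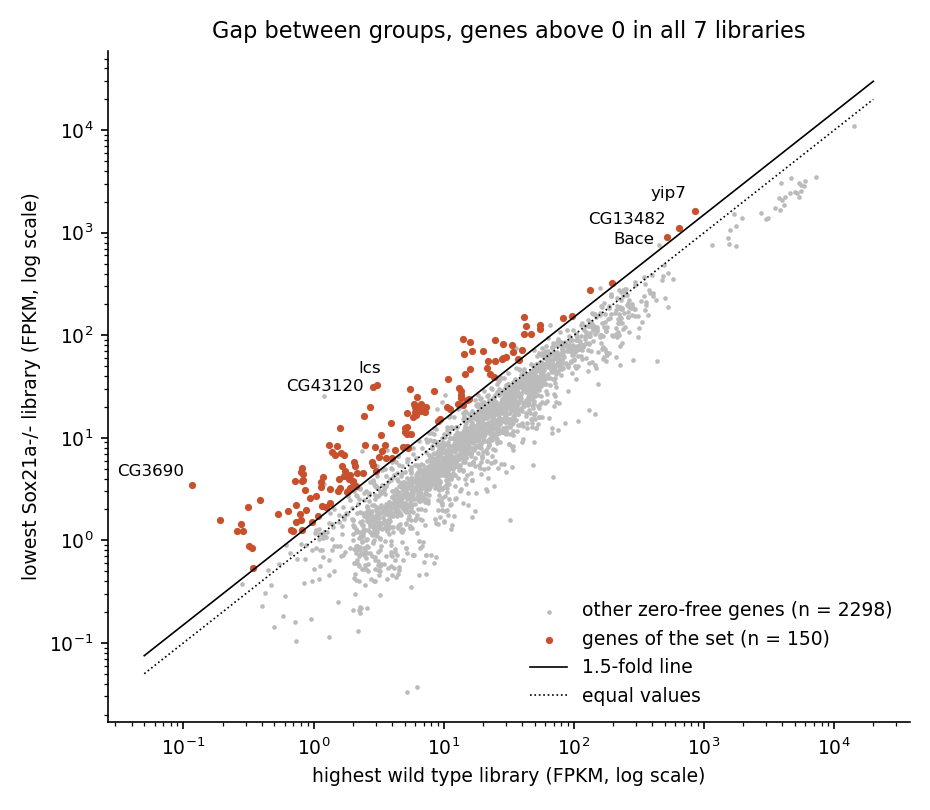
Each point is a gene above 0 in all 7 libraries with a largest value of at least 2 FPKM, placed by its highest wild type value (x axis, FPKM, log scale) and its lowest Sox21a-/- value (y axis, FPKM, log scale). The 150 genes of the set (orange) lie on or above the 1.5-fold line by the rule that chose them, CG3690 lies farthest from it, and the grey points above the line are the 15 genes left out by name.

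CG3690 had the widest separation in the set. It encodes a membrane carrier of the major facilitator superfamily, related to the synaptic vesicle protein SV2, and lies at X:948585-951900 (FBgn0040350, BDGP6, minus strand). It was at 0.05804, 0.117, 0.0703 and 0.0703 FPKM across wild type and 6.02, 4.89 and 3.49 FPKM across Sox21a-/-. The lowest Sox21a-/- value was 29.8 times the highest wild type value, and the fold was 60.8. This fold rests on about 7 reads in all 4 wild type libraries together against about 306 in Sox21a-/-, and the 95% exact interval of the ratio of reads was 28.9 to 151, which covers counting error only. CG3168, the other SV2-like carrier of the set, was at 1.001, 2.69, 0.551 and 0.336 FPKM across wild type and 28.7, 20.4 and 19.9 FPKM across Sox21a-/-. Its wild type values were higher and more spread than those of CG3690, with replicate 2 at the top, and its Sox21a-/- values lay close together.

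Carriers of the SLC17 type, which move phosphate and organic anions, numbered 5. NaPi-T, a sodium and phosphate cotransporter, was at 0.381, 0.773, 0.5305 and 0.795 FPKM across wild type and 9.29, 4.59 and 4.87 FPKM across Sox21a-/-. Sox21a-/- replicate 1 was the highest library and every Sox21a-/- value was at least 5.78 times every wild type value. CG9825 was at 0.07002, 0.389, 0.1696 and 0.381 FPKM across wild type and 2.67, 3.41 and 2.47 FPKM across Sox21a-/-. MFS9 was at 0.0577, 0.175, 0.257 and 0.1396 FPKM across wild type and 1.22, 2.14 and 1.27 FPKM across Sox21a-/-. The highest wild type value of either gene was that of CG9825 in replicate 2. CG15096 differed from these in its pattern, at 2.88, 1.77, 2.05 and 1.58 FPKM across wild type and 5.404, 26.2 and 6.09 FPKM across Sox21a-/-, with Sox21a-/- replicate 2 at 4.31 times the next library. The fifth gene, CG7881, had the smallest fold of the transport class, 2.11.

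Of the carriers of organic ions, Oatp58Db and CG17752 were near 0 in wild type and CG6231 was not. Oatp58Db, an organic anion transporting polypeptide, was at 0.0474, 0.191, 0.0574 and 0.0573 FPKM across wild type and 2.31, 2.33 and 1.59 FPKM across Sox21a-/-. About 7 reads in wild type stood against about 110 in Sox21a-/- (95% exact interval of the ratio, 10.2 to 55.2, counting error only). CG17752, an organic cation carrier of the SLC22 type on chromosome 3R, was at 0.0619, 0.719, 0.15 and 0.225 FPKM across wild type and 9.36, 4.41 and 3.76 FPKM across Sox21a-/-. CG6231, of the same family with 1 other protein-coding gene between them, had a much higher wild type level and was at 5.57, 3.76, 5.39 and 4.84 FPKM across wild type and 10.8, 10.97 and 11.4 FPKM across Sox21a-/-. Members of 1 family that lie close together thus differed widely in fold, 20.2 against 2.26.

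Carriers of vitamins, sugars, amino acids and monocarboxylates were also present. Smvt, named as a sodium-dependent multivitamin transporter, was at 0.209, 0.634, 0.19 and 0.1899 FPKM across wild type and 5.49, 3.94 and 1.93 FPKM across Sox21a-/-. CG8028, a monocarboxylate carrier, was at 0.114, 0.2303, 0.0691 and 0.276 FPKM across wild type and 2.71, 1.43 and 2.11 FPKM across Sox21a-/-, on about 12 reads in wild type. CG15406, a sugar transporter, was at 1.17, 2.03, 2.04 and 1.89 FPKM across wild type and 9.24, 6.65 and 5.85 FPKM across Sox21a-/-, with all Sox21a-/- values close together. All 3 had wild type values well below every Sox21a-/- value by the rule, and none had Sox21a-/- replicate 2 at 2 times both other Sox21a-/- libraries. NAAT1, the nutrient amino acid transporter, was at 0.697, 0.331, 0.497 and 0.496 FPKM across wild type and 1.69, 2.63 and 1.23 FPKM across Sox21a-/-. CG2930, an oligopeptide carrier, was at 3.12, 10.7, 8.76 and 8.18 FPKM across wild type and 19.9, 41.4 and 19.8 FPKM across Sox21a-/-. CG8785, an amino acid carrier of the SLC36 type, was at 0.744, 2.02, 1.247 and 1.47 FPKM across wild type and 4.14, 11.9 and 3.77 FPKM across Sox21a-/-. For CG2930 and CG8785, Sox21a-/- replicate 2 was at least 2 times the other Sox21a-/- libraries. CG6125 and CG5002, carriers of the sulfate and anion family, had folds of 12.5 and 3.06. Of the channels, the chloride channel pHCl-2 was at 2.86, 3.29, 2.81 and 2.39 FPKM across wild type and 10.7, 17.7 and 11.6 FPKM across Sox21a-/-. Eglp4, of the aquaporin family, was at 1.27, 1.71, 2.41 and 1.42 FPKM across wild type and 6.51, 9.82 and 4.55 FPKM across Sox21a-/-. VhaAC45RP, related to an accessory subunit of the proton pump, was given no class and was at 1.38, 0.664, 0.717 and 1.04 FPKM across wild type and 7.28, 7.25 and 7.76 FPKM across Sox21a-/-, with nearly equal Sox21a-/- values. The median fold of the 21 transport genes was 6.07.

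**Figure D2:**
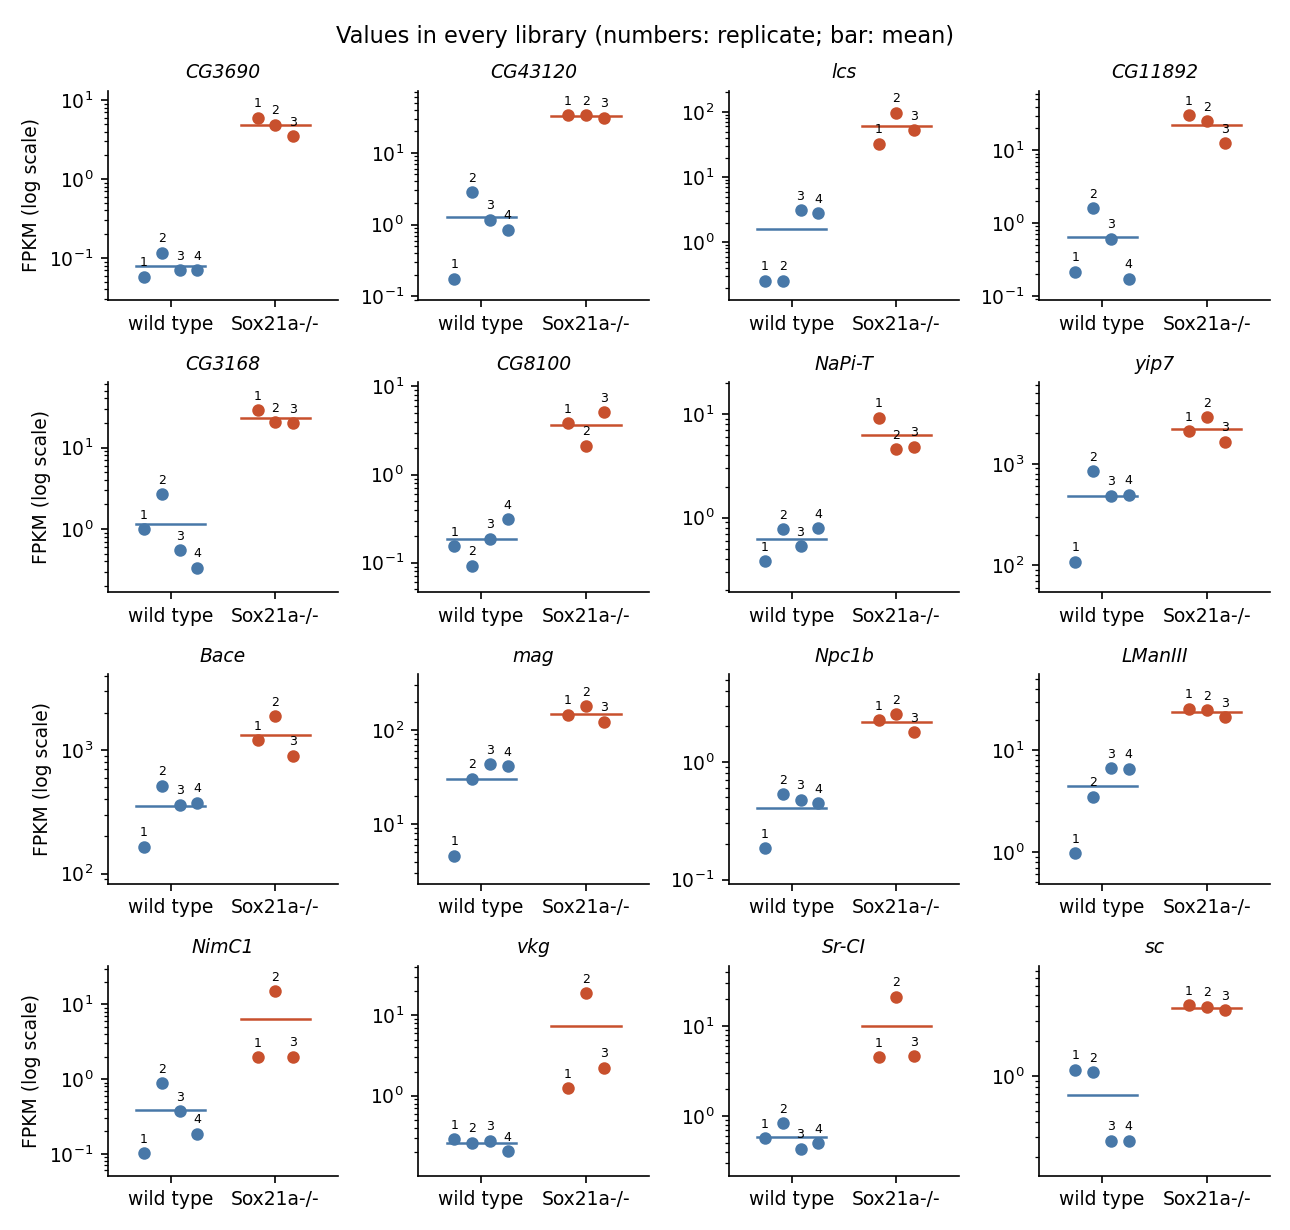
Values in every library for 16 genes of the set (y axes, FPKM, log scale, a separate range for each gene), with wild type in blue, Sox21a-/- in orange, the replicate number above each point and a bar at the group mean. CG3690 and NaPi-T show little spread within groups against the gap, yip7, mag and Bace show wild type replicate 1 below the other wild type libraries, and NimC1, vkg and Sr-CI show Sox21a-/- replicate 2 above the other Sox21a-/- libraries.

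Digestive peptidases were the next class in number. Of the 20 peptidase genes, 11 encode serine proteases of the chymotrypsin and trypsin family. The most abundant gene of the set in Sox21a-/- was yip7 (FBgn0040060, 3L:6035216-6036175 in BDGP6), a serine protease of the enterocyte, at 109, 847, 483 and 494 FPKM across wild type and 2102, 2886 and 1645 FPKM across Sox21a-/-. In wild type CG13482, a gene without a class, had the higher mean. The mean of yip7 was 483 ± 301 FPKM in wild type (SD, n = 4) and 2211 ± 628 FPKM in Sox21a-/- (SD, n = 3). For yip7, wild type replicate 1 was at 0.225 times the next library, and without it the fold was 3.64 in place of 4.58. CG10472, another abundant serine protease, was at 10.6, 100.2, 181 and 195 FPKM across wild type and 428, 491 and 323 FPKM across Sox21a-/-. CG18180 was at 6.58, 68.5, 134 and 128 FPKM across wild type and 274, 563 and 278 FPKM across Sox21a-/-. Both again had wild type replicate 1 far below the rest, at 0.106 and 0.0961 times the next wild type library.

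The serine proteases CG11912, CG11911 and CG33127 are consecutive genes on chromosome 2L. CG11911 was at 6.11, 29.9, 28.3 and 33.3 FPKM across wild type and 114.9, 104 and 81.1 FPKM across Sox21a-/-. CG11912 was at 0.5396, 2.996, 4.25 and 2.94 FPKM across wild type and 10.8, 8.53 and 7.64 FPKM across Sox21a-/-. CG33127 was at 5.23, 13.3, 13.97 and 11.1 FPKM across wild type and 32.7, 43.6 and 21.03 FPKM across Sox21a-/-. Their levels differed more than their folds, which were 4.102, 3.35 and 2.97. Over the 11 serine proteases the fold was between 2.95 and 4.91 with a median of 3.41, and 8 of the 11 had wild type replicate 1 at no more than 0.5 times every other wild type library. Ser8, a serine protease of low level at 0.4501, 0.454, 0.727 and 0.363 FPKM across wild type and 1.499, 3.46 and 1.73 FPKM across Sox21a-/-, was not among these 8.

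The aspartic proteases were Bace and Pgcl. Bace, a relative of cathepsin D and beta-secretase, was the third most abundant gene of the set in Sox21a-/-, at 165, 517, 363 and 377 FPKM across wild type and 1200.2, 1884 and 901 FPKM across Sox21a-/-. Pgcl, a pepsinogen-like gene, was at 7.06, 13.7, 5.26 and 8.55 FPKM across wild type and 39.5, 42.03 and 24.2 FPKM across Sox21a-/-. The 4 aminopeptidases of the M1 family lie as 2 close pairs on chromosome 3R, and they trim peptides from the amino end. CG8773 was at 3.12, 6.18, 5.98 and 5.24 FPKM across wild type and 17.4, 32.97 and 16.7 FPKM across Sox21a-/-. Its neighbour CG8774 was at 1.696, 2.05, 2.46 and 2.298 FPKM across wild type and 11.4, 10.3 and 8.58 FPKM across Sox21a-/-. Sox21a-/- replicate 2 stood above the other Sox21a-/- libraries for CG8773 but not for CG8774. The other pair began with CG31343, at 11.2, 10.5, 15.9 and 13.7 FPKM across wild type and 54.6, 57.3 and 47 FPKM across Sox21a-/-. Its partner CG31198 was at 11.4, 25.1, 25.8 and 28.6 FPKM across wild type and 86.1, 141 and 82.01 FPKM across Sox21a-/-. These 4 genes had folds within a narrow range, 4.13 to 4.75. CG2493, a prolylcarboxypeptidase-like serine peptidase, was at 2.91, 3.72, 5.23 and 4.39 FPKM across wild type and 19.8, 18.1 and 17.3 FPKM across Sox21a-/-. CG7631, an astacin-like metalloprotease, was at 3.42, 4.702, 5.08 and 3.57 FPKM across wild type and 27.1, 27.1 and 12.6 FPKM across Sox21a-/-. CG6337, a cathepsin-like cysteine protease, was at 1.44, 0.519, 1.62 and 1.37 FPKM across wild type and 7.06, 30.8 and 9.14 FPKM across Sox21a-/-, where Sox21a-/- replicate 2 alone was above 10 FPKM.

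Lipid and sterol genes covered digestion in the lumen, sterol uptake and lipid turnover. The gene mag (magro), which encodes a gut lipase, was at 4.63, 30.2, 43.2 and 41.4 FPKM across wild type and 146, 179 and 122 FPKM across Sox21a-/-. CG8093, a second lipase, was at 2.24, 5.604, 6.02 and 5.01 FPKM across wild type and 28.9, 28.9 and 20.1 FPKM across Sox21a-/-. In both, wild type replicate 1 was the lowest library and the highest Sox21a-/- value was 1.46 and 1.44 times the lowest. Npc1b, the sterol transporter of the enterocyte apical membrane, was at 0.184, 0.531, 0.478 and 0.446 FPKM across wild type and 2.27, 2.53 and 1.79 FPKM across Sox21a-/-. Npc2f was at 2.03, 2.79, 7.59 and 8.47 FPKM across wild type and 40.3, 28.7 and 35.4 FPKM across Sox21a-/-. Npc2d was at 0.614, 6.203, 5.71 and 6.69 FPKM across wild type and 31.97, 20.6 and 18.2 FPKM across Sox21a-/-. Both encode small secreted sterol-binding proteins. For Npc2d, wild type replicate 1 was at 0.108 times the next wild type library, and its fold without that library was 3.804 in place of 4.91.

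CG15533 and CG15534, neighbours on chromosome 3R, encode proteins like acid sphingomyelinase, which cleaves sphingomyelin. CG15533 was at 0.187, 0.662, 1.247 and 1.303 FPKM across wild type and 10.5, 14.5 and 8.44 FPKM across Sox21a-/-, the widest separation of the class. CG15534 was at 1.91, 4.82, 5.03 and 4.39 FPKM across wild type and 18.01, 11.5 and 15.8 FPKM across Sox21a-/-. The pair differed in level and in fold, 13.1 against 3.74. Acbp2, which binds acyl-CoA, was at 27.2, 31.2, 54.6 and 50.3 FPKM across wild type and 202, 161 and 125 FPKM across Sox21a-/-. Acox3, a peroxisomal acyl-CoA oxidase, was at 9.11, 12.8, 11.8 and 10.6 FPKM across wild type and 25.9, 39.4 and 21.3 FPKM across Sox21a-/-. The nearby genes laza and CG11426 on chromosome 3L, both lipid phosphatases, were at the low end with folds of 2.02 and 2.5. No gene of the 13 had Sox21a-/- replicate 2 at 2 times both other Sox21a-/- libraries, and 7 had wild type replicate 1 at no more than 0.5 times every other wild type library. The median fold was 3.98.

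Sugar and glycan breakdown was represented by 3 lysosomal alpha-mannosidases, an endoglucosaminidase and a hexokinase. LManI was at 0.8901, 2.097, 1.56 and 1.56 FPKM across wild type and 6.67, 9.53 and 5.296 FPKM across Sox21a-/-. LManII, next to it on chromosome 2L, was at 8.51, 11.5, 12.7 and 13.6 FPKM across wild type and 34.2, 44.03 and 28.6 FPKM across Sox21a-/-. LManIII was at 0.967, 3.48, 6.64 and 6.59 FPKM across wild type and 25.6, 24.9 and 21.2 FPKM across Sox21a-/-. In all 3 the Sox21a-/- libraries were well above the wild type libraries, and wild type replicate 1 was the lowest of all. ENGase, which releases N-glycans from glycoproteins, was at 1.06, 1.81, 0.997 and 1.03 FPKM across wild type and 2.97, 4.96 and 3.12 FPKM across Sox21a-/-. Hex-C, a hexokinase, the first enzyme of glycolysis, was at 0.478, 0.827, 0.744 and 1.07 FPKM across wild type and 3.66, 3.15 and 1.74 FPKM across Sox21a-/-.

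Genes of the peritrophic matrix and of chitin had a median fold of 5.48. The lowest Sox21a-/- value over the highest wild type value had a median of 2.02 in the class and of 2.43 over the 150 genes. Peritrophin-15a, a chitin-binding protein of the matrix that lines the gut lumen, was at 8.31, 54.6, 39.6 and 47.4 FPKM across wild type and 165, 238 and 115.3 FPKM across Sox21a-/-. CG42397, also with chitin-binding domains, was at 0.838, 21.4, 15.2 and 15.7 FPKM across wild type and 56.2, 139 and 48.4 FPKM across Sox21a-/-. Mur18B, a mucin-related gene, was at 0.266, 14.4, 1.37 and 1.53 FPKM across wild type and 117, 74.6 and 65.2 FPKM across Sox21a-/-, so that wild type replicate 2 alone was above 2 FPKM in wild type. The chitinase-like growth factors Idgf2 and Idgf3, neighbours on chromosome 2L, had different patterns. Idgf3 was at 1.67, 13.6, 4.66 and 3.93 FPKM across wild type and 27.8, 32.8 and 26.2 FPKM across Sox21a-/-. Idgf2 was at 1.91, 1.85, 0.185 and 0.648 FPKM across wild type and 3.34, 29.4 and 3.27 FPKM across Sox21a-/-, with Sox21a-/- replicate 2 at 8.797 times the next library. Without that library the fold of Idgf2 was 2.88 in place of 10.4. TwdlC, a cuticle protein of the Tweedle family, was at 0.471, 0.238, 0.285 and 0.665 FPKM across wild type and 1.37, 1.26 and 3.36 FPKM across Sox21a-/-.

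All 4 alkaline phosphatases of the set were highest in Sox21a-/- replicate 2. These enzymes remove phosphate groups at the cell surface. Alp9 was at 1.12, 1.603, 1.28 and 1.71 FPKM across wild type and 11.1, 33.2 and 6.86 FPKM across Sox21a-/-. Its neighbour on chromosome 3L, Alp10, was at 2.91, 5.995, 3.52 and 3.52 FPKM across wild type and 22.7, 45.9 and 18 FPKM across Sox21a-/-. For both neighbours wild type replicate 1 was the lowest library and Sox21a-/- replicate 2 the highest. Alp13 was at 0.219, 0.811, 0.354 and 0.354 FPKM across wild type and 1.46, 2.93 and 1.27 FPKM across Sox21a-/-. Alp5 was at 1.08, 7.41, 7.03 and 9.42 FPKM across wild type and 19.6, 25.8 and 15.3 FPKM across Sox21a-/-. The level in Sox21a-/- replicate 2 was at least 2 times both other Sox21a-/- libraries for Alp9, Alp10 and Alp13, and the median fold of the 4 genes was 5.79, or 4.12 without this library.

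Genes of oxidation and detoxification had a median fold of 6.64. The 4 genes with an ecdysteroid kinase-like domain had folds between 7.43 and 35.1, and 3 of them lie within 9401 bases on chromosome 3R. These 4 were placed in the class by protein family, and a role in oxidation or detoxification was not examined. Their median fold of 20.2 raises that of the class. CG11892 was at 0.215, 1.59, 0.606 and 0.173 FPKM across wild type and 30.2, 25.3 and 12.5 FPKM across Sox21a-/-. CG10513 was at 0.405, 0.818, 0.294 and 0.0981 FPKM across wild type and 9.92, 16.9 and 3.75 FPKM across Sox21a-/-. CG11878 was at 0.902, 5.21, 1.49 and 1.49 FPKM across wild type and 14.5, 25.3 and 10.8 FPKM across Sox21a-/-. In all 3 wild type replicate 2 was the highest wild type library. CG9259, the fourth, was at 0.5704, 1.47, 0.395 and 0.629 FPKM across wild type and 16.2, 11.7 and 6.78 FPKM across Sox21a-/-. The cytochromes P450 of the set were Cyp6a13, Cyp4d1 and Cyp4d8. Cyp6a13 was by far the most abundant, at 34.6, 45.98, 42.2 and 46.5 FPKM across wild type and 129.5, 103 and 120.3 FPKM across Sox21a-/-, with little spread within either group. Cyp4d8 was at 0.821, 1.17, 0.828 and 1.16 FPKM across wild type and 5.12, 10.5 and 4.19 FPKM across Sox21a-/-. Cyp4d1 was at 0.885, 0.893, 1.38 and 1.61 FPKM across wild type and 3.63, 4.44 and 3.21 FPKM across Sox21a-/-. Both were far below Cyp6a13 in every library. CG40485, a short-chain dehydrogenase, was at 0.853, 0.304, 0.689 and 0.459 FPKM across wild type and 3.19, 3.09 and 3.17 FPKM across Sox21a-/-. CG9512, an oxidoreductase of the GMC family, was at 0.739, 0.945, 0.716 and 0.179 FPKM across wild type and 6.83, 2.57 and 4.78 FPKM across Sox21a-/-. Its neighbour on chromosome X and of the same family, fiz, was at 1.19, 3.55, 1.75 and 2.34 FPKM across wild type and 13.7, 14.4 and 8.53 FPKM across Sox21a-/-. None of the 13 genes had wild type replicate 1 at no more than 0.5 times every other wild type library.

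Hemocyte and immune genes separated into those that followed Sox21a-/- replicate 2 and those that did not. NimC1, a phagocytosis receptor of hemocytes, was at 0.102, 0.876, 0.371 and 0.185 FPKM across wild type and 1.98, 14.96 and 2.01 FPKM across Sox21a-/-. NimC2, of the same family and the same stretch of chromosome 2L, was at 0.0884, 0.249, 0.299 and 0.321 FPKM across wild type and 0.884, 6.02 and 1.02 FPKM across Sox21a-/-. NimB2, also of that stretch, was at 1.14, 1.45, 1.56 and 0.734 FPKM across wild type and 3.98, 24.3 and 4.29 FPKM across Sox21a-/-. All 3 peaked in Sox21a-/- replicate 2. Sr-CI, a scavenger receptor of hemocytes, was at 0.563, 0.827, 0.434 and 0.496 FPKM across wild type and 4.48, 21.1 and 4.62 FPKM across Sox21a-/-. The collagen IV gene vkg was at 0.289, 0.2604, 0.277 and 0.203 FPKM across wild type and 1.24, 18.8 and 2.23 FPKM across Sox21a-/-. The gene nec, a serpin that restrains the Toll pathway, was at 0.595, 0.667, 0.4001 and 0.7997 FPKM across wild type and 1.57, 12.9 and 1.83 FPKM across Sox21a-/-. For each of these 6 genes Sox21a-/- replicate 2 was more than 4 times both other Sox21a-/- libraries. The other Sox21a-/- libraries were still above every wild type library, which the rule required.

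Without Sox21a-/- replicate 2 the folds of vkg, Sr-CI and NimC1 were 6.75, 7.84 and 5.19, in place of 28.9, 17.3 and 16.5. Of the other 5 hemocyte markers in the table, Col4a1, Pxn, eater and He were also highest in that library, and crq was not. Col4a1, the other collagen IV chain, was at 2.23, 2.26, 2.73 and 1.83 FPKM across wild type and 3.67, 33.1 and 5.396 FPKM across Sox21a-/-. Pxn, a peroxidasin of hemocytes and basement membrane, was at 0, 0.153, 0 and 0.114 FPKM across wild type and 0, 11.6 and 1.87 FPKM across Sox21a-/-. The phagocytosis receptor gene eater was at 0.181, 0.6104, 0.146 and 0.256 FPKM across wild type and 0.944, 6.55 and 0.908 FPKM across Sox21a-/-. None of these 3 is a member. The summed level of the 7 hemocyte markers in the table, which include NimC1 and vkg, was 2.81 to 134 FPKM over the wild type libraries and 146 to 216 FPKM over the Sox21a-/- libraries. Outside wild type replicate 1 most of this sum was crq, a scavenger receptor, at 0, 129.5, 111 and 112 FPKM across wild type and 138, 123 and 141 FPKM across Sox21a-/-. For crq Sox21a-/- replicate 2 was the lowest Sox21a-/- library and lay below wild type replicate 2. The markers He and Pxn were listed at 0 in 3 and 2 wild type libraries. The part of hemocyte RNA in the levels of these genes was not tested.

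The other 3 immune genes encode secreted recognition or antimicrobial proteins. PGRP-SC2, a secreted amidase that degrades peptidoglycan, was at 6.67, 61.4, 92.03 and 96.8 FPKM across wild type and 176, 298 and 153 FPKM across Sox21a-/-. CG12780, which resembles the Gram-negative binding proteins, was at 7.83, 15.8, 14.2 and 9.48 FPKM across wild type and 127, 85.02 and 99.02 FPKM across Sox21a-/-. Drsl2, a drosomycin-like peptide gene, was at 6.45, 2.17, 0.868 and 5.21 FPKM across wild type and 30.4, 18.7 and 25.7 FPKM across Sox21a-/-. For CG12780 and Drsl2, Sox21a-/- replicate 2 was the lowest of the Sox21a-/- libraries, unlike in the hemocyte genes. Immunity was also looked at through a list of 54 genes in the table, of which 14 were above 0 in all libraries. The ratio of means was above 1 for all 14, with a median of 3.10, against 1327 of 2684 genes and a median of 0.995 in all genes above 0. Without Sox21a-/- replicate 2, an alternative chosen after seeing the data, the median of the 14 was 1.96, with all 14 still above 1. Of the 14, 6 were in the set. The rule fixed a ratio above 1 for these 6 and they raise the median, so nothing is read from the comparison with all genes. For the list genes outside the set the ratio ran from 1.13 (PGRP-LE) to 22.3 (Mtk). The antimicrobial peptide gene Mtk, at 1.29, 2.599, 1.56 and 3.12 FPKM across wild type and 3.21, 136 and 4.46 FPKM across Sox21a-/-, was outside the set because its lowest Sox21a-/- value was about equal to its highest wild type value. Of the 40 list genes averaging 1 FPKM or more, limma with Benjamini-Hochberg adjustment called 1 higher (AttD) and 1 lower (Spn42De) at 0.05, where 1.39% of all genes were called higher and 1.05% lower.

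Few genes of cell fate, signaling or neural function were in the set, from which Delta and kek1 had been left out by name though they met the rule. The proneural gene sc (scute), a transcription factor that commits precursors to neural and enteroendocrine fates, was at 1.14, 1.07, 0.276 and 0.275 FPKM across wild type and 4.07, 3.96 and 3.68 FPKM across Sox21a-/-. Wild type replicates 1 and 2 were above replicates 3 and 4 (highest over lowest, 4.13), and the Sox21a-/- libraries were close to each other (highest over lowest, 1.11). The pro-apoptotic gene skl (sickle) was at 1.99, 1.85, 1.44 and 2.02 FPKM across wild type and 4.66, 4.39 and 3.67 FPKM across Sox21a-/-. Cow, which carries the Wg ligand outside the cell, was at 0.713, 0.711, 0.821 and 1.34 FPKM across wild type and 2.32, 3.803 and 3.36 FPKM across Sox21a-/-. Gbeta5, a G protein subunit, was at 5.24, 1.62, 3.13 and 3.04 FPKM across wild type and 13.8, 15.1 and 12.8 FPKM across Sox21a-/-. Neither gene exceeded 20 FPKM in any library. The neuropeptide gene sNPF was at 0.209, 0.337, 0.0506 and 0.0505 FPKM across wild type and 0.834, 2.56 and 0.868 FPKM across Sox21a-/-, with fewer than 10 approximate reads in any wild type library. Arc2, a capsid-like protein derived from a retrotransposon, was the most abundant of the 7, at 37.4, 31.9, 35.4 and 27.6 FPKM across wild type and 81.7, 78.9 and 58.1 FPKM across Sox21a-/-.

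**Figure D3:**
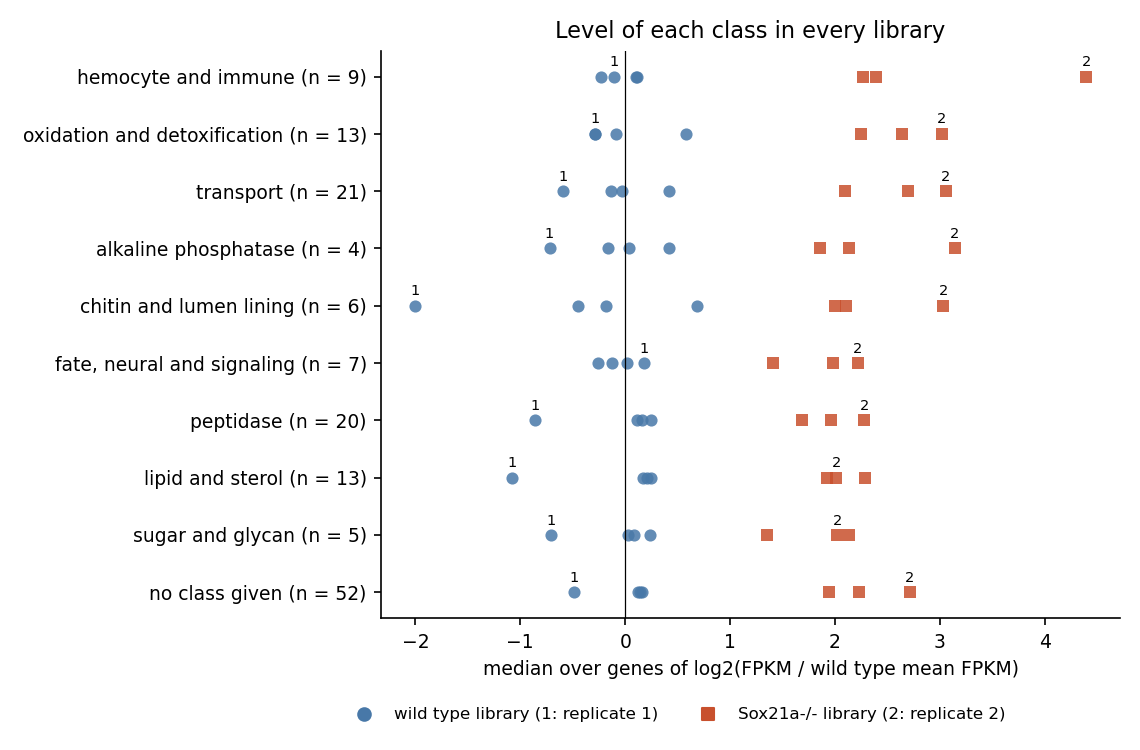
For each functional class (rows) and library (points), the median over its genes of log2 of FPKM over the gene's wild type mean (x axis, log2 scale). Wild type libraries are blue circles with replicate 1 marked and Sox21a-/- libraries are orange squares with replicate 2 marked. Wild type replicate 1 is the lowest wild type library in every row except hemocyte and immune and fate, neural and signaling. In oxidation and detoxification it is so only by a small margin. Sox21a-/- replicate 2 stands farthest apart in the hemocyte and immune class and is also well above the other libraries in the alkaline phosphatase and chitin classes.

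Genes without a class held several of the widest separations. CG43120 was at 0.176, 2.84, 1.17 and 0.8504 FPKM across wild type and 33.6, 33.6 and 31.1 FPKM across Sox21a-/-, where the highest value was 1.08 times the lowest in Sox21a-/- and 16.2 times the lowest in wild type. The gene lcs was at 0.254, 0.256, 3.07 and 2.76 FPKM across wild type and 32.6, 97.5 and 52.8 FPKM across Sox21a-/-, where wild type replicates 1 and 2 stood for about 1 read each. CG18404 was at 0.697, 4.92, 14.1 and 13.2 FPKM across wild type and 126, 147 and 92.3 FPKM across Sox21a-/-. In all 3 genes wild type replicate 1 was the lowest library. The gene vanin-like, related to pantetheinases, was at 0.592, 1.45, 2.42 and 2.01 FPKM across wild type and 23.5, 26.2 and 16.3 FPKM across Sox21a-/-. CG17739 was at 0.214, 0.683, 0.819 and 0.431 FPKM across wild type and 5.11, 9.42 and 10.5 FPKM across Sox21a-/-. The gene geko, known from olfactory behavior, was at 0.756, 0.424, 1.53 and 0.407 FPKM across wild type and 15.4, 8.27 and 12.6 FPKM across Sox21a-/-. Other genes without a class were among the most abundant of the set. CG13482 was at 331, 639, 629 and 609 FPKM across wild type and 2032, 1116 and 1494 FPKM across Sox21a-/-. Diedel3 was at 29.5, 82.2, 70.4 and 73.01 FPKM across wild type and 210.0, 463 and 146 FPKM across Sox21a-/-. The gene with the identifier FBgn0019643, which the name tables used here do not hold, was at 22.8, 21.5, 20.7 and 20.03 FPKM across wild type and 49.1, 82.1 and 41.8 FPKM across Sox21a-/-. CG34220 was the member most dominated by 1 library, at 0.966, 0.975, 1.73 and 1.504 FPKM across wild type and 5.69, 71.8 and 4.201 FPKM across Sox21a-/-, and its fold was 3.82 without Sox21a-/- replicate 2 in place of 21.05. CG42807 and CG42369 had the same pattern, with Sox21a-/- replicate 2 at 6.91 and 7.05 times the next library. CG32640 and CG32641, neighbours on chromosome X that are near copies of each other, may share reads and had almost equal values, with folds of 2.53 and 2.56. CG15209 and CG32669 overlap on chromosome X, and since the library kit does not keep the strand reads in the 299 bases they share cannot be assigned to either.

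Within the groups, Sox21a-/- replicate 2 and wild type replicate 1 stood apart for many members. Sox21a-/- replicate 2 was at least 2 times both other Sox21a-/- libraries for 26 of the 150 genes (17.3%), against 164 of the 2448 genes (6.70%). Of these 26, 6 were hemocyte and immune genes, 3 were alkaline phosphatases and none was a lipid and sterol gene. Wild type replicate 1 was at no more than 0.5 times every other wild type library for 45 of the 150 genes (30%), against 131 of the 2448 (5.35%). Of these 45, 10 were peptidases, 7 were lipid and sterol genes and none belonged to oxidation and detoxification or to fate, neural and signaling genes. Only 5 genes met both descriptions, and 84 of the 150 met neither. The median fold was 8.81 for the 26 genes (3.96 without Sox21a-/- replicate 2), 5.37 for the 45 genes (4.29 without wild type replicate 1) and 4.11 for the 84 genes. Over all 150 genes the median fold was 4.11 without Sox21a-/- replicate 2 and 4.46 without wild type replicate 1. A low wild type value and a high Sox21a-/- value both help a gene to meet the rule, so no excess over the 2448 genes is read from these shares.

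**Figure D4:**
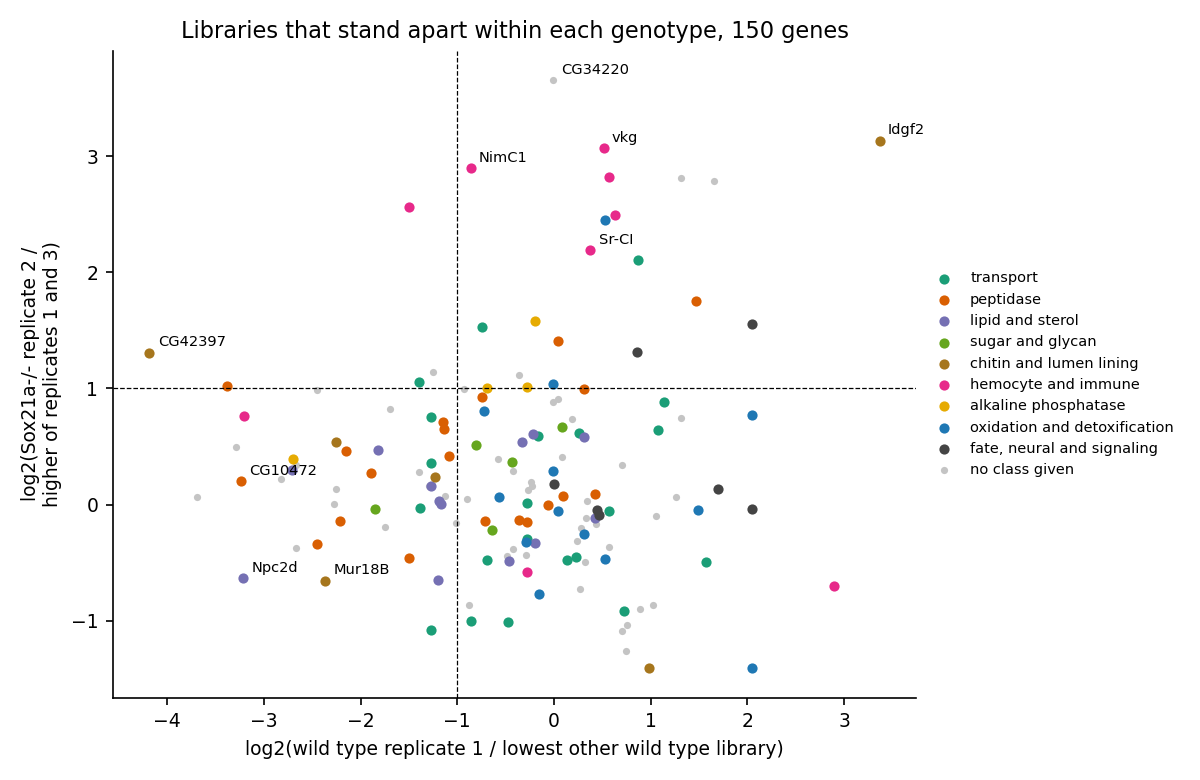
Each point is 1 of the 150 genes, coloured by class, with log2 of wild type replicate 1 over the lowest other wild type library on the x axis and log2 of Sox21a-/- replicate 2 over the higher of the other Sox21a-/- libraries on the y axis. The 26 genes on or above the horizontal dashed line had Sox21a-/- replicate 2 at least 2 times both others and include NimC1, vkg and Sr-CI, and the 45 genes on or left of the vertical dashed line had wild type replicate 1 at no more than 0.5 times every other wild type library and include CG10472, Npc2d and Mur18B.

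The enterocyte markers above 0 in all libraries, yip7, Npc2d and nub, were each higher in every Sox21a-/- library than in every wild type library, while the sum over all markers overlapped between the groups. The sum of 11 enterocyte markers was 751, 4030, 2659 and 1445 FPKM in wild type and 3194, 10554 and 6630 FPKM in Sox21a-/-, so Sox21a-/- replicate 1 lay below wild type replicate 2. The sum takes in values listed at 0, for 1 to 4 of the 11 markers in a wild type library and for 3 to 6 in a Sox21a-/- library, and Sox21a-/- replicate 1 had alphaTry, betaTry and Jon65Aiv at 0. Of these markers, yip7 and Npc2d are members of the set and were chosen by this contrast, and nub was at 1.93, 4.402, 4.32 and 3.68 FPKM across wild type and 4.68, 7.57 and 4.56 FPKM across Sox21a-/-. For nub the lowest Sox21a-/- value was only 1.04 times the highest wild type value. The other 8 were at 0 in at least 1 library, with Myo31DF at 0 in 5 libraries including all of Sox21a-/-. The summed level of the 3 visceral muscle markers in the table was 2.18 to 13.7 FPKM in wild type and 5.06 to 13.4 FPKM in Sox21a-/-, and that of the 2 tracheal markers was between 0.840 and 2.96 FPKM in all libraries. The sum of the 6 fat body and ovary markers was 195, 76.1, 43.7 and 42.7 FPKM in the order of the wild type replicates and 66.2, 224 and 54.5 FPKM in that of Sox21a-/-. It was thus highest in wild type replicate 1 and Sox21a-/- replicate 2, the libraries that stood apart in many members, mostly through the yolk protein genes Yp1 and Yp2. The enteroendocrine marker sum was 4517 to 28603 FPKM in wild type and 8691 to 35600 FPKM in Sox21a-/-, with zeros in every library. The part of RNA from other cell types in the set was not tested.

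Beyond the members, the lists of digestive and transport genes show how far the set reaches into each family. Of all 2684 genes above 0 in all libraries, 5.59% were in the set and 49.4% had a ratio above 1. Members have a ratio above 1 by the rule, so the counts of such ratios in a list are a description. Of 11 genes of lipid digestion and sterol handling in the table, 7 were above 0 in all libraries and 4 were in the set (Npc1b, Npc2d, Npc2f and mag). The other 3 were Npc2a, at 194, 204, 447 and 478 FPKM across wild type and 684, 349 and 509 FPKM across Sox21a-/-, Npc2b, with a fold of 2.65, and Npc2c, which went the other way at 7.34, 3.09, 2.72 and 3.46 FPKM across wild type and 2.55, 1.64 and 0.471 FPKM across Sox21a-/-. Limma with Benjamini-Hochberg adjustment called 0 of the 9 genes of this list that averaged 1 FPKM or more, and 5 of the 9 had an unadjusted p of at most 0.05, as had 942 of all 6565 genes. On the list of carbohydrate digestion other than maltases, 5 genes were above 0 in all libraries. Of these, LManI, LManII and LManIII were in the set (60%), and Ect3 went the other way with a ratio of 0.683. Limma called 1 of the 13 list genes averaging 1 FPKM or more, LManII, higher and none lower. Of the 16 genes above 0 in all libraries on a list of named peptidases, which holds few of the CG-numbered proteases described above, yip7 and Ser8 were in the set (12.5%), and 12 of the 16 (75%) had a ratio above 1, while limma called 1 of the 20 list genes averaging 1 FPKM or more, Nep1, higher and none lower. The exceptions included Nepl4, a neprilysin-like gene, at 2.44, 5.38, 6.02 and 7.04 FPKM across wild type and 0.6101, 0.669 and 0.873 FPKM across Sox21a-/-. Of the proton pump list, 7 genes were above 0 in all libraries and all 7 had a ratio above 1, with a median of 1.52, but only VhaAC45RP was in the set (14.3%), which was also the only gene of the 14 tested that limma called. Vha55, a core subunit, was at 91.4, 108, 135 and 134 FPKM across wild type and 139, 167 and 134 FPKM across Sox21a-/-, with overlapping groups. On the list of membrane transport genes, 11 were above 0 in all libraries. Of these, 3 were in the set (MFS9, NAAT1 and Oatp58Db, 27.3%) and 8 (72.7%) had a ratio above 1. Limma called 1 of the 37 list genes averaging 1 FPKM or more higher and none lower. The gene called, Oatp58Dc, is not a member. Of 39 detoxification genes above 0, 3 were in the set (7.69%, near the share of all genes) and 26 (66.7%) had a ratio above 1, and limma called 2 of 89 list genes higher (Cyp6a13 and Ugt317A1, 2.25% against 1.39% of all genes) and none lower. Of 19 genes above 0 on the list of peritrophic matrix, mucin, cuticle and chitin genes, 3 were in the set (Mur18B, Peritrophin-15a and TwdlC) and 12 had a ratio above 1, with a median of 1.35. The mucin gene Muc4B went the other way with a ratio of 0.372. Limma called 0 of the 24 genes of this list that averaged 1 FPKM or more, and 5 had an unadjusted p of at most 0.05. No member of the set was on the lists of lipid synthesis, septate junction, stress, EGFR and MAPK, JAK/STAT, Notch, cell cycle, secretory pathway or membrane trafficking genes. For 2 of these lists the names left out decided this. On the EGFR and MAPK list kek1 met the rule, and on the Notch list Delta did.

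In the whole-table limma fit on log2(FPKM + 1), 91 of 6565 genes were higher (1.39%) and 69 lower (1.05%) in Sox21a-/- at a Benjamini-Hochberg adjusted p of 0.05. Of the 145 members that averaged 1 FPKM or more, 43 were among the 91. The rule used the same contrast, so nothing is read from this number. Among the 2460 genes above 0 in all libraries that were fitted alone, limma with the same adjustment called 227 higher (9.23%), of which 132 were members, and 196 lower (7.97%).

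Members often lay beside each other in the genome. Positions are those of the BDGP6 annotation, matched by FlyBase identifier, whereas the reads were mapped to Release 5. Of the 149 members with a position, all protein coding, 32 were on 2L, 29 on 2R, 26 on 3L, 32 on 3R and 30 on X. Another member lay within 10 kb of 42 of the 149 genes (28.2%), while a member lay within 10 kb of 89 of 2215 other genes above 0 in all libraries and of at least 2 FPKM (4.02%). The rule did not use position, but neighbours are often copies of 1 ancestral gene and can share reads, so these shares were not tested. The 42 genes formed 18 groups, of which 14 were pairs.

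The longest group was CG33306, CG8997, CG7916, CG7953 and CG7968, which stand side by side within 7442 bases of chromosome 2L (2L:13842888-13850329). All 5 protein-coding genes of that span were members. CG8997 was at 7.32, 41.2, 36.1 and 34.9 FPKM across wild type and 221, 243 and 152 FPKM across Sox21a-/-. CG7916 was at 3.94, 10.3, 15.4 and 16.5 FPKM across wild type and 103, 125 and 69.95 FPKM across Sox21a-/-. CG7953 was at 4.16, 20.2, 13.96 and 16.7 FPKM across wild type and 106, 92.7 and 70.1 FPKM across Sox21a-/-. These 3 were the more abundant genes of the group. CG7968 was at 1.73, 3.79, 4.37 and 5.94 FPKM across wild type and 32.8, 34.5 and 21.3 FPKM across Sox21a-/-. CG33306 was at 2.67, 7.29, 3.99 and 5.51 FPKM across wild type and 27.3, 35.8 and 20.1 FPKM across Sox21a-/-. The levels within the group differed more than the folds, which lay between 5.697 and 8.604. Wild type replicate 1 was the lowest wild type library in all 5. The serine protease group CG11912, CG11911 and CG33127 likewise held all 3 genes of its span. In contrast, the span from NimB2 to NimC2 held 8 protein-coding genes, of which only these 3 members were above 0 in all libraries.

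Around the Sox21a locus itself (3L:14103481-14108118, minus strand), 3 of the 13 genes within 500 kb that were above 0 in all libraries and reached 2 FPKM were members (23.1%, against 6.13% of all such genes). CG8100, 17.1 kb away at 3L:14083615-14086421, was at 0.155, 0.0924, 0.187 and 0.312 FPKM across wild type and 3.82, 2.12 and 5.07 FPKM across Sox21a-/-, and its fold was 19.7. CG13482 and CG43120 lay 221 and 274 kb away on the other side. Fbp1, 5.43 kb from Sox21a, was at 0.176, 0.266, 0.142 and 0.319 FPKM across wild type and 1.83, 0.941 and 1.997 FPKM across Sox21a-/-, with the gap that the rule asks for but a largest value just under 2 FPKM. The other genes of the window that were above 0 in all libraries had ratios between 0.506 and 2.24. The Sox21a-/- flies differ from wild type at this locus by construction. No test was run on this share.

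**Figure D5:**
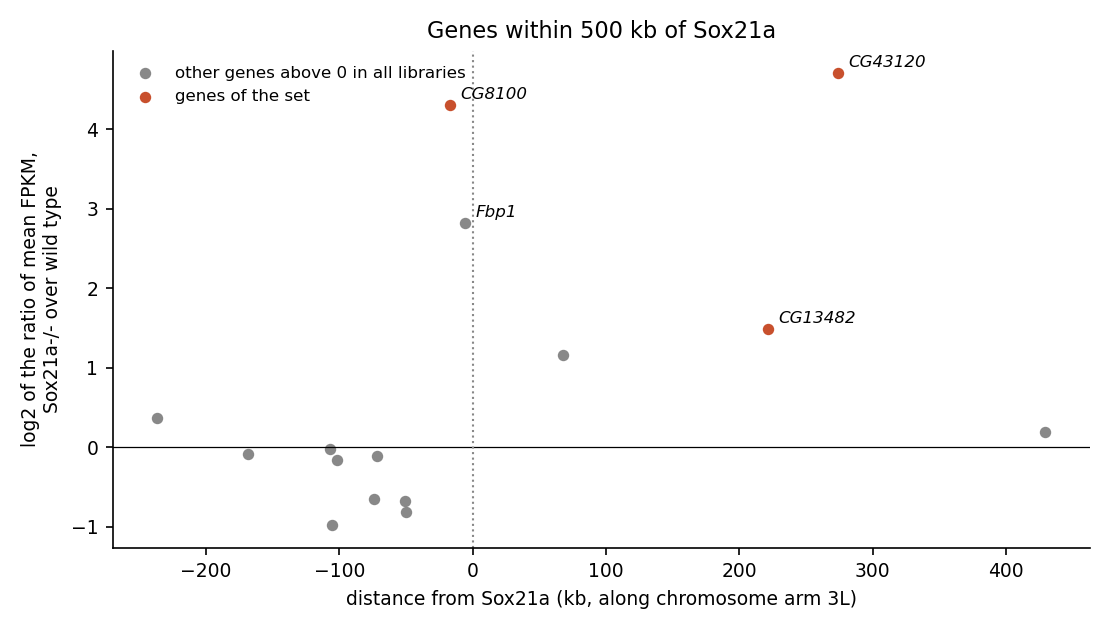
Genes within 500 kb of Sox21a on chromosome arm 3L that were above 0 in all libraries, placed by distance from Sox21a (x axis, kb) and by log2 of mean FPKM in Sox21a-/- over wild type (y axis). The 3 members (orange) and Fbp1, which is nearest to Sox21a, have the highest ratios, with CG13482 close to the next gene.

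The line between members and other genes was not sharp. Just inside it were CG32485, CG33127 and CG5002, whose lowest Sox21a-/- value was 1.5003, 1.51 and 1.51 times the highest wild type value. Just outside were sphe, a serine protease homolog, at 1.4995, the zinc transporter ZnT35C at 1.49 and Swip-1 at 1.49. The condition that no library be at 0 mattered more. A further 127 genes had the same gap and at least 2 FPKM with all Sox21a-/- values above 0 but were at 0 in a wild type library, 34 of them in all 4 and 62 in only 1. Zeros in this table can be failed estimates, so these genes were not included, and 9 genes above 0 in all libraries had the gap but stayed under 2 FPKM.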

How the data were processed

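RNA-seq was analysed for 7 libraries of sorted Esg-GFP+ midgut cells. With TopHat2 2.0.10 the authors aligned the single-end reads (genome Release 5, BDGP5 annotation), and Cufflinks 2.2.1 gave the deposited FPKM values of each library. The study's methods speak of 3 biological replicates, while 4 wild type libraries were used here and replicates 3 and 4 are the closest pair. The table gives no read counts, and the filter that led to its 7608 genes is not given in the sources used here. A value of 0 can be a failed estimate, which is why the set asks for none. FPKM was used as deposited, without further scaling. Reads per gene are approximate, since they were derived from FPKM, exon length and the smallest step between low values (2 to 10 genes per library). Names, positions and exon lengths were taken from the BDGP6 annotation by FlyBase identifier, with 7339 of 7608 matched.

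The set follows the stated rule on the values. Its members and the gene lists were chosen with earlier results of these data known, and the functional classes were assigned after the set was seen. Named are the genes with the widest gap or the highest Sox21a-/- level in the set, those with the widest gap in each class or list, and those at the edge of the rule, and some others chosen after their values were seen. The background was a two-sided limma fit (3.58.1, R 4.3.3, trend and robust settings) on log2(FPKM + 1), which understates changes of low genes, for the 6565 genes averaging 1 FPKM or more, with Benjamini-Hochberg adjustment. Simulated data served to test this fit. P-values measure the spread between these libraries, which may be partly technical. Alternatives were other folds, floors, scalings, pseudocounts and filters, a replicate block and each library left out. Other steps used Python (3.11.15) with scipy (1.17.1), pandas (2.3.3), numpy (2.4.6) and, for plots, matplotlib (3.10.9).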

Additional observations from a re-analysis of the deposited data

Results flagged for a closer look

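In 5 genes of the set and 1 marker sum, 1 wild type library lay far from the other 3 by Dixon's criterion at 95%, out of 94 values examined, where about 4.7 would be expected by chance. Wild type replicate 2 was the high library for Oatp58Db (0.191 FPKM, others 0.0474 to 0.0574), Mur18B (14.4 FPKM, others 0.266 to 1.53) and ENGase (1.81 FPKM, others 0.997 to 1.06). Wild type replicate 1 was the low library for Npc2d (0.614 FPKM, others 5.71 to 6.69), CG13482 (331 FPKM, others 609 to 639) and the summed hemocyte markers (2.81 FPKM, others 114 to 134). For Oatp58Db the high value stands for about 4 reads. The hemocyte sum in wild type replicate 1 lacks crq, which was listed at 0 there.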

How the results depend on the processing

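The set held 206 genes with a lower fold in the rule and 102 with a fold of 2, 159 without the floor, 127 with a floor of 5 FPKM, 151 after median-ratio scaling (144 shared) and 133 after quantile normalization (129 shared). It held 162 to 227 genes with 1 library left out, with 227 without Sox21a-/- replicate 3. The median fold was 6.52 with the fold of the rule at 2 and 4.02 to 5.34 with 1 library left out. For the whole-table limma calls, genes higher numbered 59 among those averaging 5 FPKM or more, 227 among genes above 0 in all libraries and 51 with wild type replicates 3 and 4 averaged (chosen after seeing the data), and 68 to 119 with 1 library left out. Genes lower numbered 196 among genes above 0 in all libraries and 45 to 93 with 1 library left out, with 45 without wild type replicate 3. Members called numbered 132 among genes above 0 in all libraries, 17 with wild type replicates 3 and 4 averaged and 17 to 44 with 1 library left out, with 17 without Sox21a-/- replicate 1. With the replicate block, limma called 1 gene higher, 2 lower and 0 members (341 higher and 205 lower at an unadjusted p of 0.05). The correlations of deviations between same-numbered libraries were -0.00085, 0.37 and 0.20. For wild type replicates 2 and 3 the same-numbered library correlated best. Wild type replicate 1 was near 0 with every Sox21a-/- library (-0.021 to 0.03), and Sox21a-/- replicate 1 correlated best with wild type replicate 4 (0.28). These values do not settle whether the numbers pair the samples, and the main fit did not use a pairing.

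The approximate depth of 7470000 to 9560000 reads per library limits the low end. For 40 members a wild type library stood for under 5 reads, and for 5 all of them did, while 139 members had at least 20 reads in their lowest Sox21a-/- library. Folds of the 40 genes are therefore imprecise. Genes with any value at 0 are outside the set whatever their difference.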
